A study of Rattus norvegicus with 8 samples.

Results

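The muscle miRNAs miR-1, miR-133a, miR-133b, miR-206 and miR-499 were followed in the prostatic urethra of rats after laser surgery. They were chosen by name, as rno-miR-1-3p and every array feature whose name begins with rno-miR-133a, rno-miR-133b, rno-miR-206 or rno-miR-499. This gave 9 of the 758 rat miRNAs on the array. Male Sprague Dawley rats aged 10 to 12 months carried no labelled genetic change, and tissue was taken 5 days after the operation. In the TULP group a thulium laser, passed through the opened bladder under a small endoscope, had vaporized the urothelium to mimic transurethral laser prostatectomy (TULP). Sham animals received a midline abdominal incision and no laser, so the bladder opening and the endoscope also differ between the groups. Each group held 4 animals with 1 array each, and the replicates are separate animals. For the TULP samples, title, tissue and treatment name trauma, whereas their descriptions speak of a sham operation, and every difference below rests on the titles.

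miRNAs are short RNAs that lower the output of messenger RNAs which pair with the seed, the bases near their 5′ end. miR-1 and miR-133a are made from shared transcripts in heart and skeletal muscle and, at lower level, in smooth muscle. miR-206 and miR-133b come from another shared transcript of skeletal muscle, and miR-206 is known for its role in myoblast differentiation and in the repair of muscle fibres. miR-499 lies in an intron of a myosin heavy chain gene of slow and cardiac muscle. The striated urethral sphincter of the rat adjoins the prostatic urethra, and smooth muscle lies in the urethral wall and in the prostatic stroma.

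The mature sequences are shown because the families differ at few positions, which bears on what each probe can tell apart. They were taken from RefSeq (GRCr8), which gave 8 of the 9 miRNAs, and the capitals mark the seed, bases 2 to 8. The lines below give the strand from the 3′ arm of the first 4 miRNAs and the 5′ strand of miR-133a and miR-499.
rno-miR-1-3p: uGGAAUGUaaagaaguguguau
rno-miR-206-3p: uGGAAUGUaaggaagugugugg
rno-miR-133a-3p: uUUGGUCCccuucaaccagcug
rno-miR-133b-3p: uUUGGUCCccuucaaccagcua
rno-miR-133a-5p: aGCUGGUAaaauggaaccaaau
rno-miR-499-5p: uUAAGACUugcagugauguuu
miR-1-3p and miR-206-3p share the seed GGAAUGU and are the same at 19 of 22 positions. Counted from 1 at the 5′ end, with the base of miR-1-3p first, they differ at A11G, A21G and U22G. miR-133a-3p and miR-133b-3p share the seed UUGGUCC and differ at G22A alone. The 5′ strand of miR-133a has another seed, GCUGGUA.

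On GRCr8, miR-1-3p lies at chr18:2160339-2160360 on the minus strand and miR-133a-3p at chr18:2157886-2157907 on the same strand. Their hairpins start 2455 bases apart, both within the gene Mib1. On the plus strand of chromosome 9, miR-206-3p lies at chr9:30590747-30590768 and miR-133b-3p at chr9:30594629-30594650. Their hairpins start 3885 bases apart, within the long noncoding RNA LOC120094648. The 5′ strand of miR-499 lies at chr3:164570616-164570636, on the plus strand within Myh7b. miR-1 and miR-206, which share a seed, are thus in different clusters, and so are miR-133a and miR-133b.

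Each miRNA was read by 2 probes of different length, and each probe by 8 spots. The longer probe of each of these miRNAs is given 5′ to 3′, with capitals at the bases that mismatch the paired miRNA, miR-206-3p for miR-1-3p and miR-133b-3p for miR-133a-3p, and the reverse.
Probe for miR-1-3p: ATacacacttcTttacattcc
Probe for miR-206-3p: CCacacacttcCttac
Probe for miR-133a-3p: Cagctggttgaagggg
Probe for miR-133b-3p: Tagctggttgaaggggacc
The probes of miR-1-3p and miR-206-3p each carry 3 mismatches to the other miRNA. Those of miR-133a-3p and miR-133b-3p carry 1 mismatch to the other miRNA, at the terminal base of the probe, and the 16 bases of the miR-133a-3p probe otherwise lie within the miR-133b-3p probe. How far 1 terminal mismatch separates miR-133a-3p from miR-133b-3p on these arrays was not tested.

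Detection was all or none. miR-1-3p, miR-133a-3p, miR-133a-5p, miR-133b-3p and miR-206-3p were detected on all 8 arrays. miR-133b-5p, miR-206-5p, miR-499-5p and miR-499-3p were detected on 0 of 8. A probe counted as detected where its total signal exceeded 3 times its error. For miR-499-5p the probe totals ran from -1.17 to 0.465, against detection limits of 3.37 to 4.25. For miR-206-5p they ran from 0.788 to 2.84, below limits of 3.39 to 4.29. Both strands of miR-499 were therefore not detectable here, and the ratio of miR-499-5p over miR-1-3p could not be formed. The arrays detected 136 to 156 miRNAs each, and the signal summed over them was 21075 to 37357 for sham and 16787 to 19464 for TULP. All arrays lay on 1 slide.

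The detected strands of miR-1 and miR-133 were called lower in the TULP group, and miR-206-3p was not called. The direct comparison of miR-206-3p with miR-1-3p, a ratio given below, did not pass its test (exact permutation adjusted p = 0.171). After quantile normalization, which gives every array the same set of values, miR-1-3p was 1.68-fold lower, miR-133a-3p 1.94-fold, miR-133a-5p 1.91-fold and miR-133b-3p 1.65-fold. miR-206-3p was 1.19-fold higher, well within its spread. Differences were fitted with limma across the 151 miRNAs detected on at least 4 arrays and adjusted over all of them by Benjamini-Hochberg. At an adjusted p under 0.05, 4 of the 5 detected muscle miRNAs were lower and 0 higher, where 16.6% of all tested miRNAs were lower and 13.9% higher, together 30.5%. The median difference of the 5 was -0.74 on the log2 scale, beside -0.02 for all tested miRNAs. None of the 5 passed the threshold of more than 2-fold that the study's methods add, which 3.97% of all tested miRNAs passed downwards. With the values the authors deposited, 2 of the 5 passed it, miR-1-3p and miR-133b-3p, and 5.3% of all tested miRNAs. The count of 4 fell to 1 with the slide row as a block in the fit. It was also 1 with the totals stored by the scanner software and without sham replicate 3. It was 2 without sham replicate 1, sham replicate 4, TULP replicate 2 or TULP replicate 3. The lower calls among all miRNAs tested in each fit, 25 at first, fell too. They were 15 with the row as a block, 20 with the stored totals and 14 without sham replicate 3. Without the other 4 arrays they were 17, 16, 18 and 16, in the order given. The loss of calls was thus not confined to the muscle miRNAs. In whole tissue, fewer muscle cells and less of a miRNA per cell cannot be told apart.

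miR-1-3p gave a signal, before normalization, of 2343, 2262, 3850 and 4895 on sham replicates 1 to 4 and of 1120, 929, 1057 and 1368 on TULP replicates 1 to 4. Each TULP array lay below each sham array. It was the brightest miRNA on 3 sham arrays and second on sham replicate 2, and it ranked between 2 and 5 on the TULP arrays. Quantile normalization works on these ranks, so sham replicates 1, 3 and 4 share the value 11.48 (log2) and sham replicate 2 has 10.86. That value is also the one of TULP replicate 4, and the normalized groups meet there, while the other TULP arrays had 10.32 to 10.56. The means were 11.32 ± 0.31 (SD, n = 4) for sham animals and 10.58 ± 0.22 (SD, n = 4) for TULP animals. The difference was -0.74 with an SE of 0.18 and a limma adjusted p of 0.0201. The call is close to the threshold. Leaving out 1 array at a time, it rose to an adjusted p of 0.0512 (sham replicate 1), 0.0600 (sham replicate 3), 0.0534 (sham replicate 4), 0.0584 (TULP replicate 2) and 0.0566 (TULP replicate 3), with the difference between -0.95 and -0.62 over all 8 omissions.

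miR-1b, which is no member by the rule, carries the same seed and differs from miR-1-3p at G17A alone. It matches the probe of miR-1-3p shown above but for that base, and is thus nearer to that probe than miR-206-3p is. It was detected on all 8 arrays and was lower in the TULP group by 0.77 on the log2 scale (SE 0.11, limma adjusted p = 0.00507). How far the probes separate miR-1b from miR-1-3p was not tested.

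miR-133a-3p, which shares a transcript with miR-1, gave 48.1, 53.7, 66.4 and 97.4 on sham replicates 1 to 4 and 16.3, 21.4, 21.9 and 27.6 on TULP replicates 1 to 4. Even the highest TULP array was below the lowest sham array, before and after normalization. Its normalized mean was 5.75 ± 0.19 (SD, n = 4) for sham animals and 4.79 ± 0.26 (SD, n = 4) for TULP animals. The difference was -0.96 with an SE of 0.16 and a limma adjusted p of 0.00605. It was the muscle miRNA whose call held whichever array was left out, at adjusted p-values of 0.00628 to 0.0221. Groups without overlap in this direction were found for 14.6% of all tested miRNAs, and among the 5 for miR-133a-3p and miR-133b-3p.

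The shorter probe of miR-133a-3p, of 15 bases, was detected on 4 sham arrays and on 0 TULP arrays, so it added to the sham signal alone. The longer probe, of 16 bases, was detected on all arrays and read 43.1, 46.9, 58.6 and 85.1 in the sham group against 16.3, 21.4, 21.9 and 27.6 in the TULP group. Refitting all miRNAs with the longer probe of each left miR-133a-3p lower by 0.96 on the log2 scale (limma adjusted p = 0.00944).

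miR-133a-5p, the opposite strand of the same hairpin, gave 31.8, 32.5, 62.4 and 63.6 on sham replicates 1 to 4 and 14.0, 14.2, 15.8 and 22.5 on TULP replicates 1 to 4. The groups were apart before normalization and overlapped after it, since sham replicate 2 fell to 4.69 and TULP replicate 4 stood at 4.74 (log2). The normalized means were 5.23 ± 0.40 (SD, n = 4) and 4.30 ± 0.31 (SD, n = 4), a difference of -0.93 with an SE of 0.24 and a limma adjusted p of 0.0230. The call was lost on leaving out sham replicate 3 (adjusted p = 0.0635), sham replicate 4 (0.0625), TULP replicate 2 (0.0696) or TULP replicate 3 (0.0597). Both strands of miR-133a were thus lower by nearly the same amount in this fit. The shorter probe of miR-133a-5p, of 19 bases, was detected on 2 sham arrays and on 0 TULP arrays, so it added to sham signal alone. With the longer probe of each miRNA, miR-133a-3p was at -0.96 and miR-133a-5p at -0.98. With the totals stored by the scanner software they parted, at -0.31 and 0.04.

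miR-133b-3p, the partner of miR-206 in its cluster, gave 1527, 1572, 2120 and 2898 on sham replicates 1 to 4 and 607, 818, 803 and 1025 on TULP replicates 1 to 4. All TULP arrays lay below all sham arrays, with TULP replicate 1 the lowest. The normalized means were 10.66 ± 0.06 (SD, n = 4) for sham animals and 9.93 ± 0.34 (SD, n = 4) for TULP animals. The difference was -0.72 with an SE of 0.17 and a limma adjusted p of 0.0163. The call was lost on leaving out sham replicate 1 (adjusted p = 0.0586) or sham replicate 3 (0.0507). Its signal ranked 3, 4, 3 and 3 on the sham arrays, so 3 of the normalized sham values are the same, 10.69.

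miR-206-3p, which shares the seed of miR-1-3p and the cluster of miR-133b-3p, showed no called difference. Its signal was 792, 831, 1378 and 2033 on sham replicates 1 to 4 and 408, 960, 986 and 1231 on TULP replicates 1 to 4. TULP replicates 2, 3 and 4 therefore lay inside the sham range, and TULP replicate 1 lay below it. After normalization the sham arrays stood between 9.29 and 10.10, TULP replicates 2, 3 and 4 at 10.56, 10.32 and 10.69, and TULP replicate 1 at 8.71. The means were 9.82 ± 0.38 (SD, n = 4) for sham animals and 10.07 ± 0.92 (SD, n = 4) for TULP animals. The difference was 0.25 with an SE of 0.45, a 95% interval from -0.81 to 1.30 and a limma adjusted p of 0.795. Without TULP replicate 1 it was 0.71 with an adjusted p of 0.0487, and miR-206-3p was then the muscle miRNA called higher. With any other array left out it ran from 0.06 to 0.34 at adjusted p-values of 0.727 and above.

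**Figure D1:**
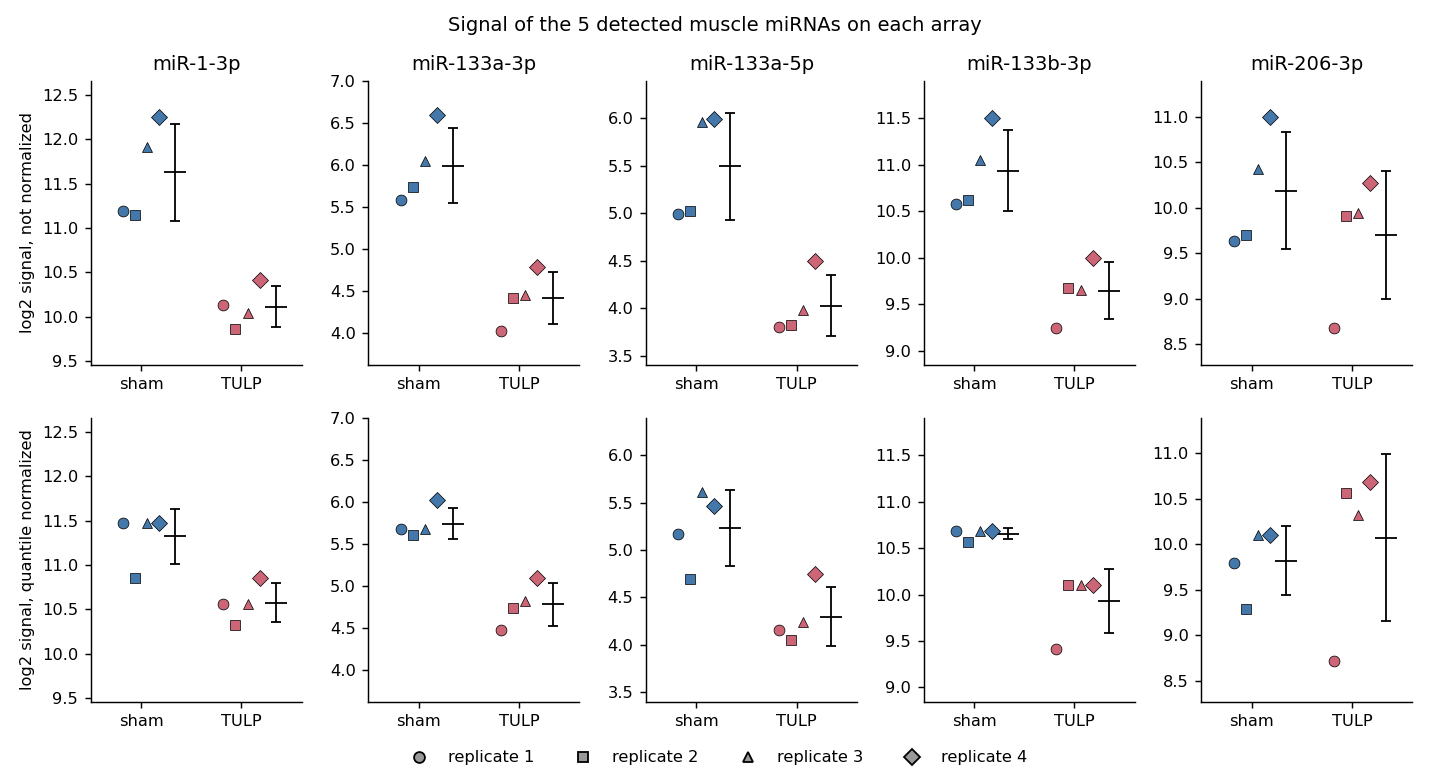
Signal of the 5 detected muscle miRNAs on each of the 4 sham and 4 TULP arrays, before normalization (top) and after quantile normalization (bottom), on log2 axes whose range differs between miRNAs. Points are single arrays, and the bar beside them is the mean with its SD. The TULP points of miR-1-3p, miR-133a-3p, miR-133a-5p and miR-133b-3p lie below the sham points in the top row, and TULP replicate 1 stands below the other TULP arrays for miR-206-3p.

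The direction of miR-206-3p depended on how arrays were scaled, whereas that of miR-1-3p, miR-133a-3p and miR-133b-3p did not under any scaling run. Without normalization the median of all tested miRNAs shifted by -0.55 on the log2 scale, and with scaling to the labelling spike-ins, synthetic RNAs added in known amount, by -0.78. miR-206-3p then stood at -0.49 and -0.72, close to those medians, with limma adjusted p-values of 0.327 and 0.155. miR-1-3p stood at -1.51 and -1.74, miR-133a-3p at -1.58 and -1.81, miR-133a-5p at -1.47 and -1.70 and miR-133b-3p at -1.29 and -1.52. These 4 thus lay below the median of all tested miRNAs on either scale. Under both scalings 4 of the 5 were called lower and exceeded 2-fold, as did 19.2% and 31.8% of all tested miRNAs. With the deposited values, miR-1-3p was at -1.30, miR-133b-3p at -1.04 and miR-206-3p at -0.02. Normexp background correction of the spots left all 4 called and gave smaller differences for the dim miR-133a-3p, at -0.46, and miR-133a-5p, at -0.44. The totals per miRNA that the scanner software stored, which are not the sum of the detected probes, kept miR-1-3p at -0.68 (adjusted p = 0.0325), gave -0.31 for miR-133a-3p (adjusted p = 0.677), 0.04 for miR-133a-5p (adjusted p = 0.943) and -0.63 for miR-133b-3p (adjusted p = 0.0698).

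**Figure D2:**
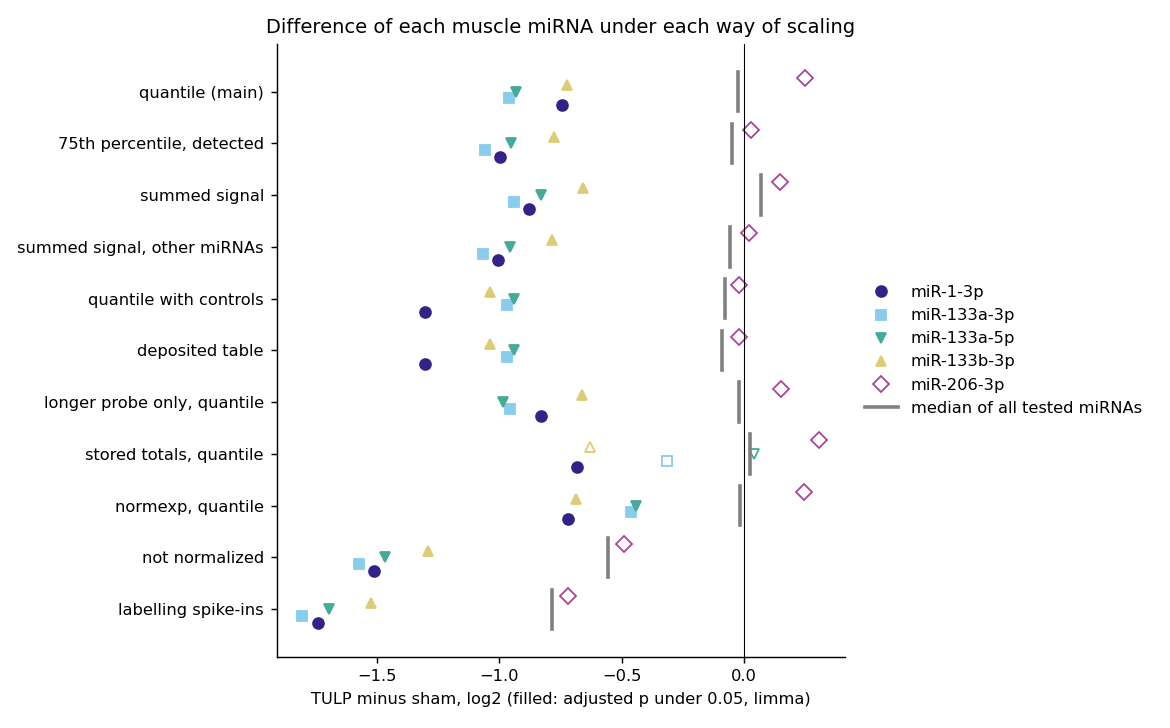
Difference between TULP and sham (log2) of the 5 muscle miRNAs under 11 ways of forming and scaling the signal, with filled symbols at a limma adjusted p under 0.05 and a grey bar at the median of all tested miRNAs. miR-206-3p lies above that median in each row, and miR-1-3p lies below it in each row.

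The slide had 2 rows of arrays. TULP replicates 1, 2 and 3 shared the first with sham replicate 4, and the second held the other 4 arrays. Within the first row the differences were -0.99 for miR-1-3p, -1.34 for miR-133a-3p, -1.31 for miR-133a-5p and -0.81 for miR-133b-3p. Within the second they were -0.41, -0.55, -0.41 and -0.54 in the same order. All 4 were lower in both rows, by less in the second. miR-206-3p was at -0.23 within the first row and at 0.96 within the second. Each row holds 1 array of one of the groups, so no test within rows was made. With the row as a block in the limma fit, miR-133a-3p stayed called (adjusted p = 0.0268), while miR-1-3p had 0.0787, miR-133a-5p 0.0826 and miR-133b-3p 0.0698. The labelling spike-in signal also differed by row, at 2.87 to 2.92 (log10) on the first and 2.72 to 2.84 on the second. Scaling to the spike-ins therefore brings the row into the difference between the groups, and the size of its part was not tested.

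Where both probes of a miRNA were detected on all arrays, they gave like differences before normalization. They were -1.60 and -1.50 for miR-1-3p, -1.12 and -1.32 for miR-133b-3p and -0.54 and -0.48 for miR-206-3p, the shorter probe first, on the log2 scale. The smaller change of miR-206-3p was thus seen with both of its probes. For miR-133a-3p and miR-133a-5p no such comparison could be made, since the shorter probe was detected on 0 TULP arrays. Probes of a miRNA are read on the same arrays and are not replicates.

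Ratios between muscle miRNAs on the same array were taken before normalization and do not depend on a scaling factor of that array. They compare changes and not amounts, since different probes bind with different strength. Of 5 ratios, 4 could be formed, and each was compared by a two-sided exact permutation test over the 70 labellings of the arrays, whose smallest p is 0.0286, with Benjamini-Hochberg adjustment over the 4.

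The ratio of miR-206-3p over miR-1-3p was 0.338, 0.367, 0.358 and 0.415 on sham replicates 1 to 4. On TULP replicates 2, 3 and 4 it was 1.03, 0.933 and 0.900, and on TULP replicate 1 it was 0.364. TULP replicate 1 thus stood among the sham arrays, and the other 3 TULP arrays stood above all of them. On the log2 scale the mean was -1.44 ± 0.13 (SD, n = 4) for sham animals and -0.42 ± 0.70 (SD, n = 4) for TULP animals. The difference of 1.02, or 2.03-fold, did not pass the exact permutation test (p = 0.0857, adjusted p = 0.171). Without TULP replicate 1 it was 1.37, at an exact p of 0.0286 and an adjusted p of 0.0571. It was 0.76 within the first slide row and 1.35 within the second. With the longer probe of each miRNA it was 1.02 and with the shorter 1.06, so neither probe pair alone carried it.

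The ratio of miR-206-3p over its cluster partner miR-133b-3p was looked at after the values were known and is given without a test. It was 0.518, 0.528, 0.650 and 0.702 on sham replicates 1 to 4, 1.17, 1.23 and 1.20 on TULP replicates 2, 3 and 4, and 0.672 on TULP replicate 1. The same 3 TULP arrays stood above the sham arrays, and TULP replicate 1 again lay within their range.

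Neither ratio of miR-133 to miR-1 passed the test. That of miR-133a-3p over miR-1-3p was 0.0172 to 0.0237 on the sham arrays and 0.0145 to 0.0230 on the TULP arrays. Its log2 difference was -0.06 (exact permutation p = 0.714, adjusted p = 0.714). The sign is not settled, since the sum includes the probe of miR-133a-3p detected on sham arrays alone. The difference was 0.11 with the longer probes, 0.34 with the deposited values and 0.97 with the stored totals, the last at an exact permutation p of 0.0286 and an adjusted p of 0.114. That of miR-133b-3p over miR-1-3p was 0.551 to 0.695 on the sham arrays. On TULP replicates 2, 3 and 4 it was 0.881, 0.760 and 0.749, above all sham arrays, and on TULP replicate 1 it was 0.542, below them. The log2 difference was 0.22 (exact permutation p = 0.229, adjusted p = 0.305).

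miR-133a-3p over miR-133b-3p, from different clusters, was 0.0315, 0.0341, 0.0313 and 0.0336 on sham replicates 1 to 4 and 0.0268, 0.0261, 0.0273 and 0.0270 on TULP replicates 1 to 4. The groups were apart, and the log2 difference was -0.28, with means of -4.94 ± 0.06 (SD, n = 4) and -5.22 ± 0.03 (SD, n = 4). This reached the smallest p the design allows (exact permutation p = 0.0286) and not the threshold after adjustment (adjusted p = 0.114). The value rests on the shorter probe of miR-133a-3p, which was detected on sham arrays alone. With the longer probe of each miRNA the difference was -0.07 (exact permutation p = 0.0571).

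**Figure D3:**
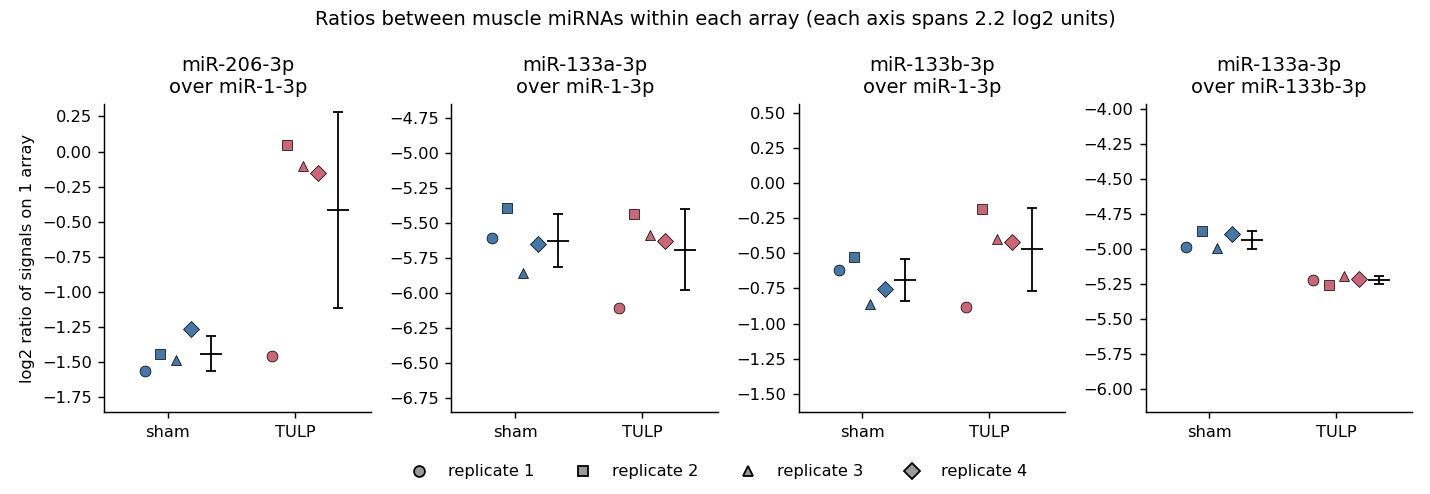
Log2 ratio of the signals of a pair of muscle miRNAs on each array, with axes of equal length, single arrays as points and the mean with its SD beside them. For miR-206-3p over miR-1-3p, TULP replicates 2, 3 and 4 lie above the sham arrays and TULP replicate 1 lies among them.

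The 5 detected muscle miRNAs together took 22.5, 18.8, 25.6 and 26.7% of the summed signal on sham replicates 1 to 4 and 11.1, 15.7, 17.2 and 21.1% on TULP replicates 1 to 4. The lowest share was that of TULP replicate 1, and TULP replicate 4 exceeded sham replicate 2. The mean share was 23.4% ± 3.56 (SD, n = 4) for sham animals and 16.3% ± 4.11 (SD, n = 4) for TULP animals. miR-1-3p alone took 11.6% ± 2.00 (SD, n = 4) and 6.30% ± 1.11 (SD, n = 4), while miR-206-3p took 4.30% ± 0.97 (SD, n = 4) and 5.13% ± 2.13 (SD, n = 4). The share is of array signal, not of molecules.

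Other miRNAs of striated muscle followed in part. Of 8 such features, 3 were detected on all arrays and 2 of these were called lower, beside 16.6% of all tested miRNAs. miR-486, abundant in muscle and in red blood cells, was at -0.79 (limma adjusted p = 0.0498), and miR-378a-5p, from an intron of a gene of mitochondrial metabolism, at -1.16 (adjusted p = 0.0161). miR-22-3p was at -0.05 (adjusted p = 0.852). Both strands of miR-208a and miR-208b, which like miR-499 lie in myosin genes of heart and slow muscle, were detected on 0 arrays. The median of the 3 was -0.79, beside -0.02 for all tested miRNAs. The summed signal of the list was 286 to 480 on the sham arrays and 188 to 251 on the TULP arrays. As a share of the summed signal of the array, the groups overlapped. The list took 1.29 to 1.42% on the sham arrays and 1.12 to 1.43% on the TULP arrays, most on TULP replicate 4.

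Smooth muscle miRNAs showed no call. Of 6 features 2 were detected on all arrays, and miR-143-3p was at 0.07 (limma adjusted p = 0.905) and miR-145-5p at -0.63 (adjusted p = 0.356). The summed signal of this list was 797 to 1130 on the sham arrays and 408 to 952 on the TULP arrays, highest among the latter on TULP replicate 1. miR-490, a further smooth muscle miRNA, was detected on 0 arrays on either strand.

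Of the leukocyte miRNAs, 3 of 6 tested features were called higher after TULP, beside 13.9% of all tested miRNAs, and 0 lower, with a median of 1.45. miR-223-3p of myeloid cells was at 2.10 (limma adjusted p = 0.00313) and miR-146b-5p, induced by inflammatory signals, at 2.90 (adjusted p = 0.00320). miR-146a-5p, of the same family, was at 0.39 (adjusted p = 0.0995), and the remaining call was miR-142-3p of blood cells, at 2.01 (adjusted p = 0.0163). miR-142-3p was detected on 6 arrays, and its sham mean of 1.67 lay near the floor of 0.96, which enters the size of its difference. miR-155-5p, detected on 4 arrays, was at 0.89 (adjusted p = 0.236). miR-150-5p of lymphocytes was at -0.59 (adjusted p = 0.0737), with each TULP array below each sham array. The summed signal of the list was 61.1 to 124 on the sham arrays and 144 to 197 on the TULP arrays. Of its 12 features 6 were detected on 0 arrays. The part of these cells in the lower muscle miRNAs was not tested.

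Epithelial miRNAs had 8 tested features with 0 calls in either direction and a median of -0.63. miR-200b-3p was at 0.00 (limma adjusted p = 1), miR-429 at 0.01 (adjusted p = 0.992) and miR-200a-3p at -0.71 (adjusted p = 0.0874). The dimmer miR-375-3p was at -2.03 (adjusted p = 0.0675), miR-200c-3p at -1.46 (adjusted p = 0.0753), miR-205 at -0.68 (adjusted p = 0.285) and miR-141-3p at -0.57 (adjusted p = 0.232). miR-375-3p was detected on 5 arrays. It stood at 4.05 on TULP replicate 1, beside a sham mean of 3.77, and at the floor on the other TULP arrays. The size of its difference thus depends on the floor. The summed signal of the list was 606 to 830 on the sham arrays, 287 to 368 on TULP replicates 2, 3 and 4 and 785 on TULP replicate 1. As a share of the summed signal, the list took 4.04% on TULP replicate 1, above the 1.92 to 2.87% of the sham arrays. The leukocyte share of TULP replicate 1, 0.745%, was above the 0.259 to 0.408% of the sham arrays. The part of tissue makeup in the value of TULP replicate 1 was not tested.

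**Figure D4:**
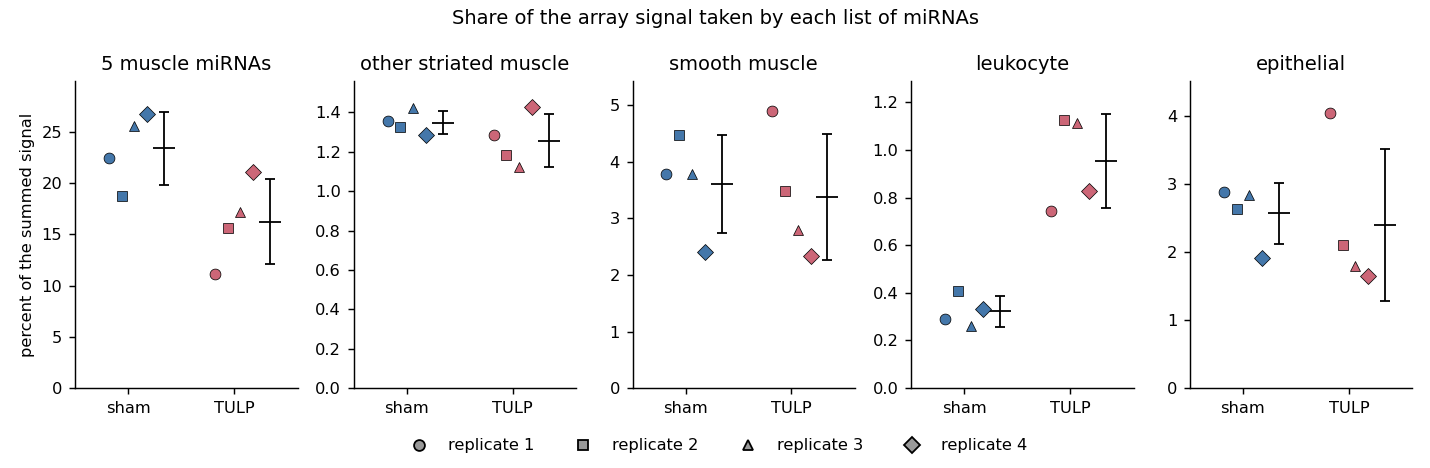
Percent of the summed signal of each array taken by the 5 detected muscle miRNAs and by the miRNAs of 4 marker lists, on axes from 0 whose range differs between panels, with single arrays as points and the mean with its SD. Leukocyte miRNAs are higher on each TULP array than on any sham array, and TULP replicate 1 has the lowest share of muscle miRNAs and the highest of epithelial miRNAs.

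The 5 tested miRNAs whose normalized values followed the mean of the detected muscle miRNAs most closely over the 8 arrays were miR-486, miR-378b, miR-196a-5p, miR-378a-5p and miR-345-5p, with Pearson r of 0.97, 0.92, 0.89, 0.89 and 0.87. The difference between the groups enters these values. The r of the deviations from the group means was 0.94, 0.82, 0.74, 0.70 and 0.62 in the same order. Among the muscle miRNAs themselves, the r of deviations was 0.91 between miR-1-3p and miR-133a-5p and 0.96 between miR-133b-3p and miR-206-3p. Between miR-1-3p and miR-206-3p it was 0.35. miR-133a-3p had 0.53 with miR-1-3p and 0.64 with its opposite strand. With miR-133b-3p and miR-206-3p of the other cluster it had 0.68 and 0.77. miR-133b-3p had 0.17 with miR-1-3p and 0.31 with miR-133a-5p, and miR-133a-5p had 0.52 with miR-206-3p. The highest values, 0.96 and 0.91, were thus within a cluster, whereas miR-133a-3p had higher values with the other cluster than within its own. How far its probes separate it from miR-133b-3p was not tested. All these r values are descriptions over 8 arrays that share a normalization.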

How the data were processed

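Total RNA of 8 animals, 4 sham and 4 TULP, was hybridized to a 1-colour rat miRNA array. Agilent Feature Extraction 10.7.1.1, named in the submitters' notes and per the file headers, gave background-subtracted intensity values per spot on a linear scale, not normalized between arrays. A series table deposited by the authors holds log2 values, quantile normalized together with control features. Its detected values rank as the probe signals do, so its direction is that of the signal. Its median was -3.32 in every column, the log2 of the value 0.1 for undetected features. Array positions refer to build rn4, and sequences and positions in the text are RefSeq's on GRCr8.

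The members and all lists were chosen with earlier results of these data known. Named were all members, up to 3 of the brightest miRNAs per marker list, and the 5 miRNAs most like the members. miR-1b, miR-141, miR-142, miR-150, miR-155, miR-200c, miR-205, miR-208a, miR-208b, miR-375 and miR-490 were named after their values were seen. A miRNA's signal was the sum of probes above 3 times their error, or 0.1 where there was none. Signals were quantile normalized over 758 rat miRNAs, raised to a floor of 1.94 (0.96 in log2) and fitted with limma 3.58.1 in R 4.3.3 over 151 miRNAs. The fit replaced the t-test of the study's methods, which was run as an alternative. It was tested on simulated data. Ratios used unnormalized signals and exact permutation in Python 3.11.15. Precision is limited by 4 arrays per group.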

Additional observations from a re-analysis of the deposited data

Results flagged for a closer look

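In 18 groups of 4 arrays, 4 had 1 array far from the other 3, where chance gives about 1 in 20 groups. miR-1-3p stood at 10.86 (normalized log2) on sham replicate 2, below the 3 sham arrays that shared 1 value. miR-133b-3p stood at 10.56 on sham replicate 2 and at 9.42 on TULP replicate 1, each time below 3 arrays that shared 1 value. In these 3 cases the distance arises because quantile normalization gave arrays of equal rank the same value. The log2 ratio of miR-206-3p over miR-1-3p stood at -1.46 on TULP replicate 1, where the other TULP arrays had -0.15 to 0.05, and this ratio, taken before normalization, does not depend on a scaling factor of the array.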

How the results depend on the processing

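Over all alternatives the difference of miR-206-3p ran from -0.72 to 0.96. It turned to -0.019 with the deposited values (limma and the methods' t-test) and with control features in the quantile step, to -0.49 without normalization and to -0.72 with the labelling spike-ins. miR-133a-5p turned to 0.041 with the stored totals. The number of muscle miRNAs called lower, 4, was 1 with the stored totals and 1 with the slide row as a block, and 1 to 4 without single arrays. The count of all miRNAs with an adjusted p under 0.05, 46, was 28 with the stored totals, 28 with the slide row as a block, 87 with the spike-ins and 28 to 57 without single arrays. The count that also exceeded 2-fold, 14, was 34 without normalization, 53 with the spike-ins, 1 with the normexp background, 8 for miRNAs detected on all arrays, 6 with the higher floor and 9 to 21 without single arrays. On the signals summed from detected probes, the methods' t-test gave 18 miRNAs at its own threshold and 12 after Benjamini-Hochberg adjustment. With the deposited values it gave 17 and 13, and of the muscle miRNAs miR-1-3p and miR-133b-3p were among both. The ratio of miR-133a-3p over miR-1-3p turned to 0.97 with the stored totals, 0.34 with the deposited values and 0.11 with the longer probes, and ran from -0.15 to 0.075 without single arrays. That of miR-133a-3p over miR-133b-3p turned to 0.75 with the stored totals and 0.068 with the deposited values. Except where a probe or normalization is named as the source, the cause was not tested.

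Same-numbered arrays did not pair, since their deviations correlated at 0.13, -0.10, 0.27 and -0.10, and 2 of 4 matched their own number best. With the replicate number as a block, 37 miRNAs were called, 4 of them muscle miRNAs, and the log2 ratio of miR-206-3p over miR-1-3p, 1.02, had an exact sign-flip permutation p of 0.125, the smallest that 4 pairs allow. The probe of longest length for each miRNA and the values within slide rows were alternatives chosen after seeing the data. Scaling to the 75th percentile of all rat miRNAs was not run, since that percentile was 0.1, the value for undetected miRNAs, on every array.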
